A study of Mus musculus with 8 samples.

Results

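The 10 genes described here belong to the skeletal muscle programme: the myogenic regulators *Myod1*, *Myog*, *Myf5* and *Myf6*, the muscle enzyme and sarcomere genes *Ckm*, *Actn3*, *Mybph* and *Mybpc1*, and the acetylcholine receptor subunit genes *Chrna1* and *Chrng*. They were chosen by name because fast skeletal isoforms had been seen in the cultured cells, so their levels *in vitro* against *in vivo* are given as a description, with no test. All 10 were found among the 54532 genes of the deposited table. The data go against the label of a skeletal muscle programme: 9 of the 10 genes stayed under the filter on low values, the 4 regulators gave 7 fragments in all over 8 libraries, and *Actn3* alone exceeded 1 FPKM in any library. FPKM is the number of sequenced fragments of a gene divided by its length and by the library size, which the authors scaled between libraries, so levels of different genes can be compared per length.

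Skeletal muscle is specified by a family of basic helix-loop-helix factors. *Myf5* and *Myod1* commit precursors, *Myog* drives terminal differentiation, and *Myf6* acts in late differentiation and in fibres. These factors bind E-boxes as dimers with the widely expressed E proteins, act together with MEF2 proteins, and are held in check by the Id proteins, which capture E proteins. The heart has no member of the family and builds its sarcomere under other factors, among them the MEF2C, GATA4, TBX5 and myocardin used for reprogramming here. Fast skeletal fibres use their own isoforms of myosin, troponin and α-actinin, and several contractile genes are shared between skeletal muscle and heart during development.

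The cells were MICFs, cardiac fibroblasts taken from the infarcted hearts of C57BL/6 mice, male and 8 weeks old per the study's methods, 6 days after surgery. In all groups the cells had been infected with separate lentiviruses for MGT (*Mef2c*, *Gata4* and *Tbx5* on 1 transcript), *Myocd*, *Sall4* and eGFP, each under a doxycycline-inducible promoter, and received doxycycline. Cells were gated on eGFP alone, so not every cell need carry every factor. One portion was injected into the hearts of mice with myocardial infarction that were given the immunosuppressants tacrolimus, mycophenolate mofetil and methylprednisolone, and the other stayed in culture, in a medium that per the methods contained the TGF-β receptor inhibitor SB431542 and the JAK inhibitor baricitinib. eGFP+ cells were sorted from both at Days 7 and 14, which made 4 groups of 2 libraries, one for each place and time. The labels do not say which animals or wells the replicates came from, and no group without the reprogramming factors was analysed here, so the differences between heart and culture include medium, drugs and surroundings. Libraries held 12304242 to 14546904 fragments on genes, so that 3 fragments, taken here as the limit of detection, stood for 0.105 to 0.146 FPKM of *Myod1*. Sums over marker lists differed between the places: 8 fibroblast markers summed to 8885 to 11357 FPKM *in vivo* and to 1989 to 3031 *in vitro*, 8 macrophage markers to 1771 to 2833 *in vivo* and 4466 to 5588 *in vitro*, and 6 mesothelial markers to 13.1 to 31.1 *in vivo* and 234 to 487 *in vitro*. Endothelial markers (8 genes) summed to 73.5 to 91.2 FPKM *in vivo* and 21.2 to 51.5 *in vitro*, mural markers (8) to 535 to 740 and 877 to 984, and Schwann cell markers (6) to 6.49 to 12.0 and 2.11 to 2.52. A sum follows its most abundant genes. Among macrophage markers, 1 was called higher and 1 lower *in vitro* at 1 week, and 4 and 0 at 2 weeks. Among mural markers, 2 and 3 were called at 1 week, and 2 and 2 at 2 weeks. Shares of all tested genes were 5.07% higher and 7.79% lower, then 8.05% and 9.02%. Calls were by limma at an adjusted p under 0.01 and a log2 difference over 1 in size. In bulk libraries, fewer cells of a type and less RNA per cell cannot be told apart.

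Promoter sequences are shown for 4 genes, since the myogenic factors act on E-boxes. They are *Myog*, a regulator at or near 0, *Chrna1*, a receptor gene that was low everywhere, and *Mybph* and *Myl1*, with higher values in culture. The *Mybph* values may hold reads of the overlapping gene *Adora1*, as described below. Each sequence is the RefSeq window (GRCm38.p6) from 250 bases before to 50 bases after the annotated start, read 5′ to 3′ on the strand of the gene, with every E-box, CANNTG, in capitals. *Myog* lies at chr1:134289754-134290053 on the plus strand, *Chrna1* at chr2:73580289-73580588 on the minus strand, *Mybph* at chr1:134193198-134193497 on the plus strand and *Myl1* at chr1:66945007-66945306 on the minus strand.
Myog: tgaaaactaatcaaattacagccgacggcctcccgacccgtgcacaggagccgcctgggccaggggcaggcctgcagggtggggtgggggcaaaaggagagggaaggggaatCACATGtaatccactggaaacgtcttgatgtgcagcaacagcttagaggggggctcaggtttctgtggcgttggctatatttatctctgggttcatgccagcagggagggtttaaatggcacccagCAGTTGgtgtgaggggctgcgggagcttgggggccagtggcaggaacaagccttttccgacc
Chrna1: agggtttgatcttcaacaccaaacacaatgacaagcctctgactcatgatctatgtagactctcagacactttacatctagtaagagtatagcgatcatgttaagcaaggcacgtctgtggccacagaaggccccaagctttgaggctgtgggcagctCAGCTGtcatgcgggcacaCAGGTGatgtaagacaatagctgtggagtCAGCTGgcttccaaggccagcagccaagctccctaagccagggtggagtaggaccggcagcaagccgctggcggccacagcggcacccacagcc
Mybph: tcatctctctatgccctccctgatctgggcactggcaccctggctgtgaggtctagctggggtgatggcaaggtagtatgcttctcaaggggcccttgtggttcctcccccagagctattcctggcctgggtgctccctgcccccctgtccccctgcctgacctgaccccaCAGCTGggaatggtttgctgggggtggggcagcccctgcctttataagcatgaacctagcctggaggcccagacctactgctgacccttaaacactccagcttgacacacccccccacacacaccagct
Myl1: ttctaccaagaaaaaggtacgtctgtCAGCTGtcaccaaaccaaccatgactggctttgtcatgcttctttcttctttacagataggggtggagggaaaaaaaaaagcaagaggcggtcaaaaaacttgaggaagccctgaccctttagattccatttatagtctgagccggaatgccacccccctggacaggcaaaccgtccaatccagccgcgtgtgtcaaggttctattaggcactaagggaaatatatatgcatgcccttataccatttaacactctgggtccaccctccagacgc

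The *Chrna1* window held 3 E-boxes, which began 92, 73 and 44 bases before the start, and the first and the last read CAGCTG. The *Mybph* window held 1 E-box, CAGCTG, 79 bases before the start, and that of *Myl1* held 1, also CAGCTG, 224 bases before it. The *Myog* window held CACATG 138 bases and CAGTTG 12 bases before the start. CANNTG reads as CANNTG and CAGCTG as CAGCTG on the other strand, so each box was counted once. A window was at hand for 7 of the 10 genes, *Myod1*, *Myf6* and *Actn3* being without one. Of the 7, 6 held CANNTG and 5 held CAGCTG, and *Myf5* held neither. Among 32851 promoter windows of the same length, 72.3% held CANNTG and 16.3% held CAGCTG. The MEF2 motif was found in none of the 7 and in 0.557% of all windows, which says only that these letters are not in these windows. A match is a description and not a site of binding.

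The 4 myogenic regulators were at or near 0 in heart and in culture alike. *Myod1* (chr7:46376474-46379099, plus strand) had 1 fragment, 0.0459 FPKM, in the *in vivo* 1 week replicate 1 and none in the 7 other libraries. *Myog* (chr1:134289989-134292548, plus strand) had 1 fragment in 1 *in vivo* library at 1 week and 2 fragments, 0.121 FPKM, in 1 at 2 weeks, and was at 0 in all 4 *in vitro* libraries. *Myf5* (chr10:107482908-107486134, minus strand) and *Myf6* (chr10:107492853-107494737, minus strand) are neighbours, 6718 bases apart with no gene between them in the table. *Myf5* had 1 fragment and *Myf6* had 2, 0.106 FPKM, each in a single *in vitro* library at 1 week.

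None of the 4 reached 3 fragments in any library, so no level could be compared between groups at this depth. Over the 4 *in vitro* libraries together, the upper 95% limit on the pooled level, an exact Poisson limit that covers counting error only, was 0.0343 FPKM for *Myod1*, 0.0427 for *Myog*, 0.0463 for *Myf5* and 0.099 for *Myf6*. Over the 4 *in vivo* libraries the limits were 0.0636, 0.125, 0.0376 and 0.0621 FPKM in the same order. No other gene held any 50-base stretch of these 4, so fragments were not shared with a copy elsewhere.

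**Figure D1:**
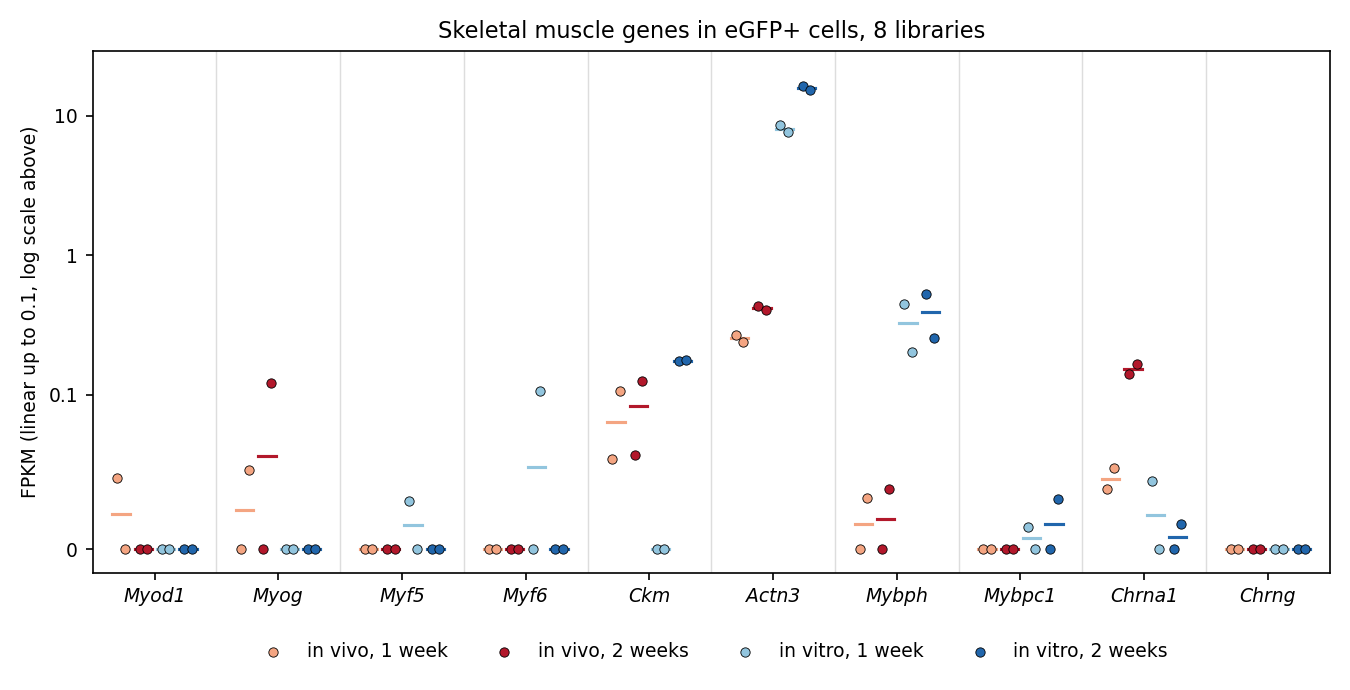
FPKM of the 10 skeletal muscle genes (one per column) in each of the 8 libraries, 1 point per library, with the mean of each group of 2 as a bar; the axis is linear up to 0.1 and logarithmic above. *Actn3* stands at 7.66 to 16.2 FPKM in the 4 *in vitro* libraries, and no other point of the plot exceeds 0.528 FPKM.

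*Actn3* encodes α-actinin-3, the Z-disc protein of fast skeletal fibres (ENSMUSG00000006457, chr19:4861223-4877909, minus strand). It was at 0.266 and 0.239 FPKM *in vivo* at 1 week, 0.429 and 0.407 *in vivo* at 2 weeks, 8.48 and 7.66 *in vitro* at 1 week, and 16.2 and 15.3 *in vitro* at 2 weeks. All 4 *in vitro* libraries were far above all 4 *in vivo* libraries, and within each condition both 2 week libraries were above both 1 week libraries. Mean levels were 0.252 ± 0.019 FPKM and 0.418 ± 0.0154 FPKM *in vivo* at 1 and 2 weeks, and 8.07 ± 0.585 and 15.8 ± 0.595 FPKM *in vitro* (SD, n = 2 each). Thus the level in culture was 32.0 times that in the heart at 1 week and 37.8 times at 2 weeks, which is a log2 difference of 4.54 and 4.94 on the log2(FPKM + 0.1) scale.

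The fragments behind these values were 45 in the 4 *in vivo* libraries and 1961 in the 4 *in vitro* libraries. In culture at 2 weeks, 3195 genes had a higher mean FPKM. Only 2 of its 2852 50-base stretches were found in another gene, its paralogue *Actn2*. *Actn3* and *Mybph* were the 2 of the 10 genes that were higher in every *in vitro* library than in every *in vivo* library, and none was lower in every one. Among 28005 genes with a fragment in any library, 12.5% were higher and 13.4% lower without overlap. As culture levels chose the genes, nothing is read from these counts.

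The time course in the heart, 2 weeks against 1 week, was not used to choose the genes and was tested. *Actn3* was the only one of the 10 that passed the filter of 0.5 FPKM in 2 libraries, and it did so only through the culture libraries, since all 4 heart values were lower. In the heart it was 1.66 times as high at 2 weeks, with a log2 difference of 0.56 ± 0.13 (SE), and did not pass the thresholds of an adjusted p under 0.01 and a log2 difference over 1 (limma, adjusted p = 0.0284; 0.0213 to 0.362 over the alternatives, whose log2 differences ran from 0.18 to 0.71). In that comparison 1.23% of 15708 genes were called higher and 0.949% lower. With no filter on low values, 9 of the 10 genes entered the test over 28005 genes and none was called, *Actn3* having an adjusted p of 0.0497 by limma.

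The genes whose pattern over the 8 libraries was most like that of *Actn3* were *Lrrn4*, *Myl4* and *Lrp2*. Likeness was the root mean square difference between log2(FPKM + 0.1) values centred on each gene's mean, and it came to 0.17 for *Lrrn4*, 0.19 for *Myl4* and 0.25 for *Lrp2*. *Myl4* encodes the atrial and embryonic essential light chain of myosin. *Lrrn4* is one of 6 mesothelial markers listed for the check of cell types. It was at 1.65 to 2.67 FPKM *in vivo*, at 52.3 and 53.3 *in vitro* at 1 week and at 84.3 and 79.8 at 2 weeks.

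The mesothelial marker list moved with *Actn3*. The sum of its 6 genes was 14.6 and 13.1 FPKM *in vivo* at 1 week, 30.8 and 31.1 at 2 weeks, 240 and 234 *in vitro* at 1 week, and 477 and 487 at 2 weeks. All 6 markers were called higher *in vitro* at both times, against 5.07% of all tested genes at 1 week (with 7.79% lower) and 8.05% at 2 weeks (with 9.02% lower), and 4 of 6 were called higher at 2 weeks in the heart. *Actn3* amounted to 1.82% of this sum in both *in vivo* libraries at 1 week, to 1.39% and 1.31% at 2 weeks, and to 3.15% to 3.53% *in vitro*. The part of mesothelial cells in the *Actn3* level was not tested.

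**Figure D2:**
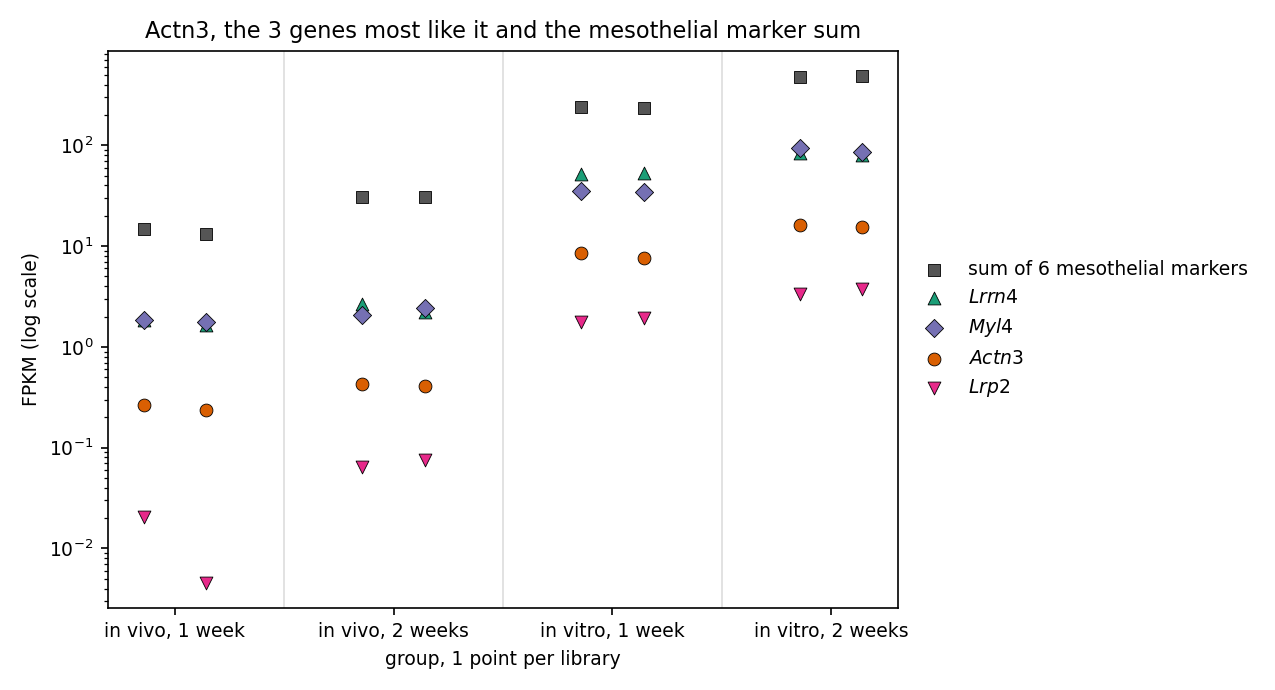
FPKM (log axis) of *Actn3*, of *Lrrn4*, *Myl4* and *Lrp2*, the 3 genes most like it, and of the sum of 6 mesothelial markers, with 1 point per library and the 4 groups side by side. All 5 series are lowest *in vivo* at 1 week and highest *in vitro* at 2 weeks, and the mesothelial sum runs from 13.1 to 487 FPKM.

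*Ckm* encodes the muscle creatine kinase, an abundant enzyme of mature skeletal muscle and heart (chr7:19404776-19422841, plus strand). It was at 0.0586 and 0.105 FPKM *in vivo* at 1 week, 0.0608 and 0.124 *in vivo* at 2 weeks, 0 in both *in vitro* libraries at 1 week, and 0.174 and 0.177 *in vitro* at 2 weeks. The 2 week cultures were the highest and the 1 week cultures the lowest, with the heart between them. These levels rest on 2 to 4 fragments in each *in vivo* library and on 7 in each *in vitro* library at 2 weeks. The ratio of the pooled levels, *in vitro* over *in vivo*, was 0.951 (exact 95% interval for counting error 0.408 to 2.25). Of its 50-base stretches, 10.8% are also found in the overlapping gene *A930016O22Rik*, which did not exceed 0.0354 FPKM.

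*Mybph* encodes myosin binding protein H, a thick filament protein of skeletal muscle (chr1:134193448-134201232, plus strand). It had 0 and 1 fragments *in vivo* at 1 week, 0 and 1 at 2 weeks, 16 and 7 *in vitro* at 1 week, and 17 and 8 *in vitro* at 2 weeks, or 0.446, 0.201, 0.528 and 0.253 FPKM in the 4 *in vitro* libraries. Every culture library was above every heart library, and the replicates in culture differed more than the mean levels at both times did. The pooled ratio, *in vitro* over *in vivo*, was 19.6, from 48 against 2 fragments, with an exact 95% interval of 5.13 to 166 for counting error.

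The *Mybph* values cannot be told apart from those of its neighbour on the other strand. The gene overlaps *Adora1* (chr1:134199223-134235431, minus strand), the adenosine A1 receptor gene, and 43.9% of its 50-base stretches are also in *Adora1* transcripts. *Adora1* was at 0.199 to 0.383 FPKM in the 4 *in vivo* libraries, at 2.37 and 2.47 *in vitro* at 1 week and at 4.05 and 3.64 *in vitro* at 2 weeks. It thus had 15 to 25 fragments in a heart library and 211 to 324 in a culture library. The strand setting of the authors' counting is not given in the sources used here, and the part of *Adora1* reads in the *Mybph* counts was not tested. *Mybph* and *Myog* lie 88756 bases apart on chromosome 1. *Adora1* reaches from within *Mybph* into this gap, and no coding gene lies wholly inside it.

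*Mybpc1* encodes the slow skeletal myosin binding protein C (chr10:88518279-88605152, minus strand). It had 1 fragment in 1 *in vitro* library at 1 week and 2 fragments, 0.0325 FPKM, in 1 at 2 weeks, and was at 0 in the 6 other libraries. That is under 3 fragments everywhere, and the pooled limits were 0.0173 FPKM *in vivo* and 0.0335 *in vitro*.

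Both subunit genes of the muscle acetylcholine receptor were low, and 1 was absent. *Chrng* encodes the γ subunit of the fetal receptor (chr1:87204657-87212694, plus strand) and was at 0 in all 8 libraries, each of which could have shown 0.0468 to 0.0653 FPKM as 3 fragments. *Chrna1* encodes the α subunit, which binds acetylcholine (chr2:73563215-73580338, minus strand). It was at 0.0389 and 0.0525 FPKM *in vivo* at 1 week, 0.141 and 0.165 *in vivo* at 2 weeks, 0.0444 and 0 *in vitro* at 1 week, and 0 and 0.0168 *in vitro* at 2 weeks.

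*Chrna1* was the only one of the 10 with over 3 fragments in any library whose highest levels were in the heart: both 2 week *in vivo* libraries, with 7 and 8 fragments, were above the 6 others, which had 0 to 3. The ratio of pooled levels, 2 weeks over 1 week in the heart, was 3.32 from 15 against 5 fragments (exact 95% interval for counting error 1.15 to 11.7). In the test with no filter its log2 difference was 0.80, with a p of 0.023 before adjustment and an adjusted p of 0.149 by limma, so it was not called. Of its 50-base stretches, 3.02% are also found in other transcripts.

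The other subunits and the proteins that gather the receptor at the synapse were not one group in these data. *Chrnb1*, the β subunit gene, was at 4.91 to 6.19 FPKM *in vivo* and 2.46 to 4.3 *in vitro*, *Chrnd* was at 0 in all 8 libraries, and *Chrne* did not exceed 0.0505 FPKM. Of 13 listed synapse genes 8 were tested, and 2 were called higher and 1 lower *in vitro* at 2 weeks, against 8.05% and 9.02% of all tested genes. *Ache*, which breaks down acetylcholine, was at 0.137 and 0.287 FPKM *in vivo* and at 3.99 and 5.55 *in vitro* at 2 weeks, a log2 difference of 3.99 ± 0.43 (SE, limma, adjusted p = 0.000353). Both of these heart values were under the 0.5 FPKM of the filter. *Rapsn*, which clusters the receptor, was 1.18 higher on the log2 scale (adjusted p = 0.000541), though by 0.86, under the size threshold, with a pseudocount of 1. *Lrp4*, the receptor for agrin, fell by 1.77 (adjusted p = 6e-05). *Agrn*, agrin, and *Utrn*, utrophin, differed by -0.72 and -0.38 at 2 weeks and were not called, while *Agrn* fell by 1.03 at 1 week (adjusted p = 0.000531), a call lost without the *in vivo* 1 week replicate 1 or the *in vitro* 1 week replicate 1.

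Fast skeletal isoforms prompted the choice of the 10 genes, so they too are described without a test between culture and heart. *Myl1*, the essential light chain of fast myosin, was at 0.206 and 0 FPKM *in vivo* at 1 week, 0.171 and 0.262 *in vivo* at 2 weeks, 3.07 and 2.23 *in vitro* at 1 week, and 37.3 and 33.5 *in vitro* at 2 weeks. *Mylpf*, the fast regulatory light chain, was at 0.361 to 1.13 FPKM in the 4 *in vivo* libraries, 0.979 and 1.95 *in vitro* at 1 week, and 10.7 and 9.07 at 2 weeks. Both were highest in the 2 week cultures, and *Mylpf* at 1 week overlapped between heart and culture.

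*Myh1*, the fast 2X myosin heavy chain, had its highest level in the 1 week cultures, at 2.77 and 2.73 FPKM, against 1.48 and 1.49 in the 2 week cultures and 0.0418 to 0.269 in the heart. *Myh2* stood at 0.206 to 0.385 FPKM in culture and had 1 fragment in the 4 heart libraries together, while *Myh4*, the fastest chain, did not exceed 0.0611 FPKM. Of the 50-base stretches of *Myh1*, 30.5% are found in other transcripts, mostly of other myosin heavy chains, so reads of this family are uncertain. *Tnnt3*, fast troponin T, was at 2.13 to 2.75 FPKM in the heart, 1.35 and 1.65 in the 1 week cultures and 5.07 and 5.76 in the 2 week cultures. *Tnni2* overlapped between heart and culture, at 0.423 to 1.26 FPKM, and *Tnnc2* had 3 fragments in all.

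*Pvalb*, the calcium buffer of fast fibres, was at 3.77 and 4.13 FPKM in the heart at 1 week and 8.17 and 7.83 at 2 weeks, and at 0.374 and 0.515 in culture at 1 week and 4.65 and 3.74 at 2 weeks. *Casq1*, the calsequestrin of skeletal fibres, was higher in every *in vivo* library, 0.999 to 1.84 FPKM, than in every *in vitro* library, 0.446 to 0.866. *Atp2a1*, the fast calcium pump, did not exceed 0.287 FPKM. *Mybpc2*, the fast myosin binding protein C, reached 1.56 and 1.3 FPKM in culture at 2 weeks and was at 0.147 to 0.63 elsewhere. In the heart time course, 8 of the 12 fast genes were tested and none was called. Of the 8, *Myl1*, *Myh1* and *Mybpc2* were under 0.5 FPKM in every heart library and passed the filter only through culture. *Pvalb* had a log2 difference of 1.00 (adjusted p = 0.0109) and *Myh1* one of -0.99 (adjusted p = 0.0533). One of the 8 was called when genes had to reach 1 FPKM, and 1 by voom.

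**Figure D3:**
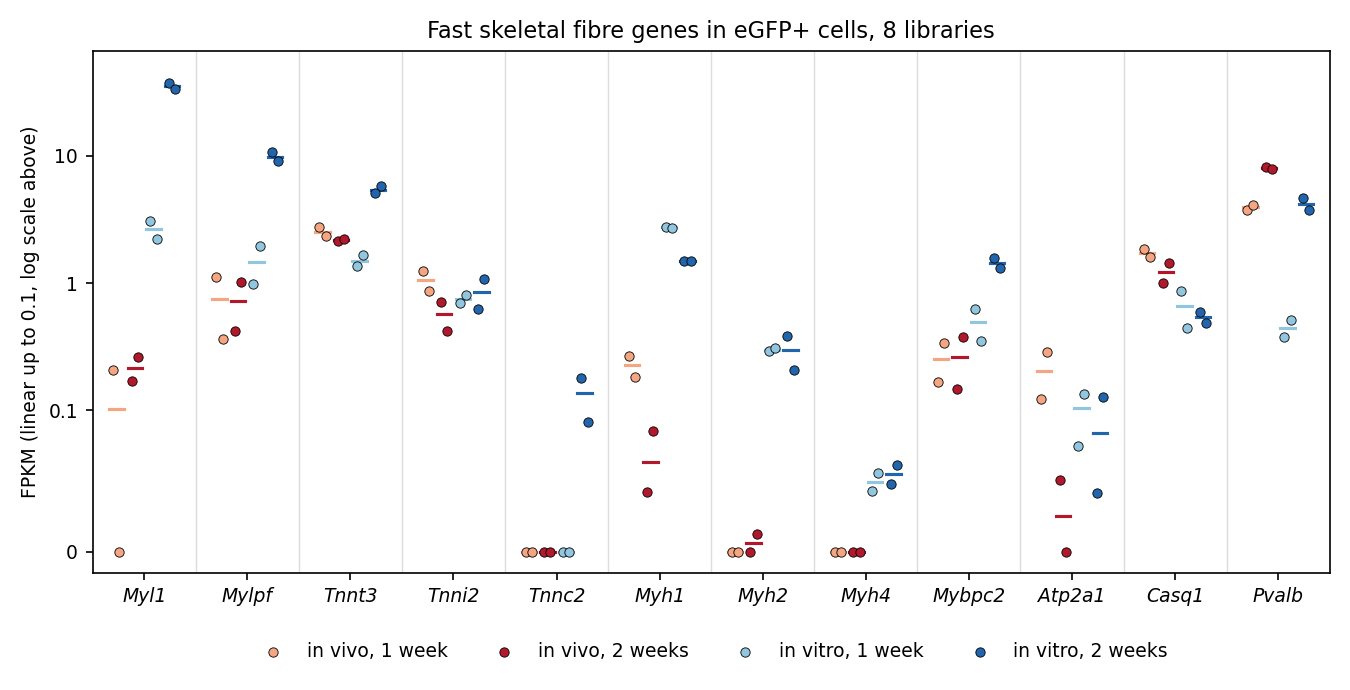
FPKM of 12 fast skeletal fibre genes in each of the 8 libraries, 1 point per library and the mean of each group of 2 as a bar; the axis is linear up to 0.1 and logarithmic above. *Myl1* reaches 37.3 FPKM and *Mylpf* 10.7 in culture at 2 weeks, while *Tnnc2* and *Myh4* stay under 0.2 FPKM.

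Each skeletal gene was set beside a paralogue or the gene that does its work in heart or fibroblasts. Of 12 counterparts 8 were tested, and *Actn2*, *Mybpc3* and *Mybphl* were called higher *in vitro* at 2 weeks, with none lower, against 8.05% and 9.02% of all tested genes. These 3 are also counted among the sarcomere scaffold genes below, so the counts overlap. *Actn2* and *Mybphl* were under 0.5 FPKM in every heart library, so they passed the filter only through culture. *Mybpc3* was under 0.5 FPKM in both 2 week heart libraries. *Actn2*, an α-actinin of heart and skeletal fibres, was at 0.0202 to 0.0716 FPKM in the heart and at 0.137 and 0.176 in the 1 week cultures. In the 2 week cultures it was at 3.75 and 2.64 (log2 difference 4.25 ± 0.41, limma, adjusted p = 0.000199). *Actn3* therefore made up 97.7% and 98.4% of the FPKM of this pair in the 1 week cultures and 81.2% and 85.3% in the 2 week cultures. Both were small beside the non-muscle paralogues *Actn1*, at 46.8 to 122 FPKM, and *Actn4*, at 87.7 to 104, neither of which was called.

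*Mybphl*, the paralogue of *Mybph* known from atrial muscle, was at 0 in all 4 *in vivo* libraries and at 1.99, 2.15, 4.65 and 6.57 FPKM *in vitro*. Against 3 fragments per heart library the 1 week cultures were at least 10.8-fold higher and the 2 week cultures at least 26.6-fold higher. In culture *Mybph*, whose counts may hold *Adora1* reads, made up 3.7% to 18.4% of this pair. *Mybpc3*, the heart form of *Mybpc1*, rose to 5.78 and 6.88 FPKM *in vitro* at 2 weeks from 0.304 and 0.34 in the heart (log2 difference 3.92 ± 0.18, adjusted p = 7.02e-06). *Ckb*, the creatine kinase of brain and many other cells, was at 59.5 to 144 FPKM, and *Ckm* was under 0.2% of that pair in every library. The mitochondrial kinases *Ckmt1* and *Ckmt2* did not exceed 1.62 and 0.115 FPKM.

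Further pairs were chosen after their values were seen. *Myl1* made up 28.4% and 28.1% of its pair with *Myl4* in the 2 week cultures and at most 10.1% elsewhere. In the pairs of *Tnnt3* with *Tnnt2*, *Tnni2* with *Tnni3* and *Myh1* with *Myh6*, the skeletal gene had its smallest shares in culture: 2.53% to 4.3%, 2.31% to 19.3% and 1.15% to 17.7%, against 17.2% to 35.1%, 22.6% to 57.9% and 19.0% to 67.9% in the heart.

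**Figure D4:**
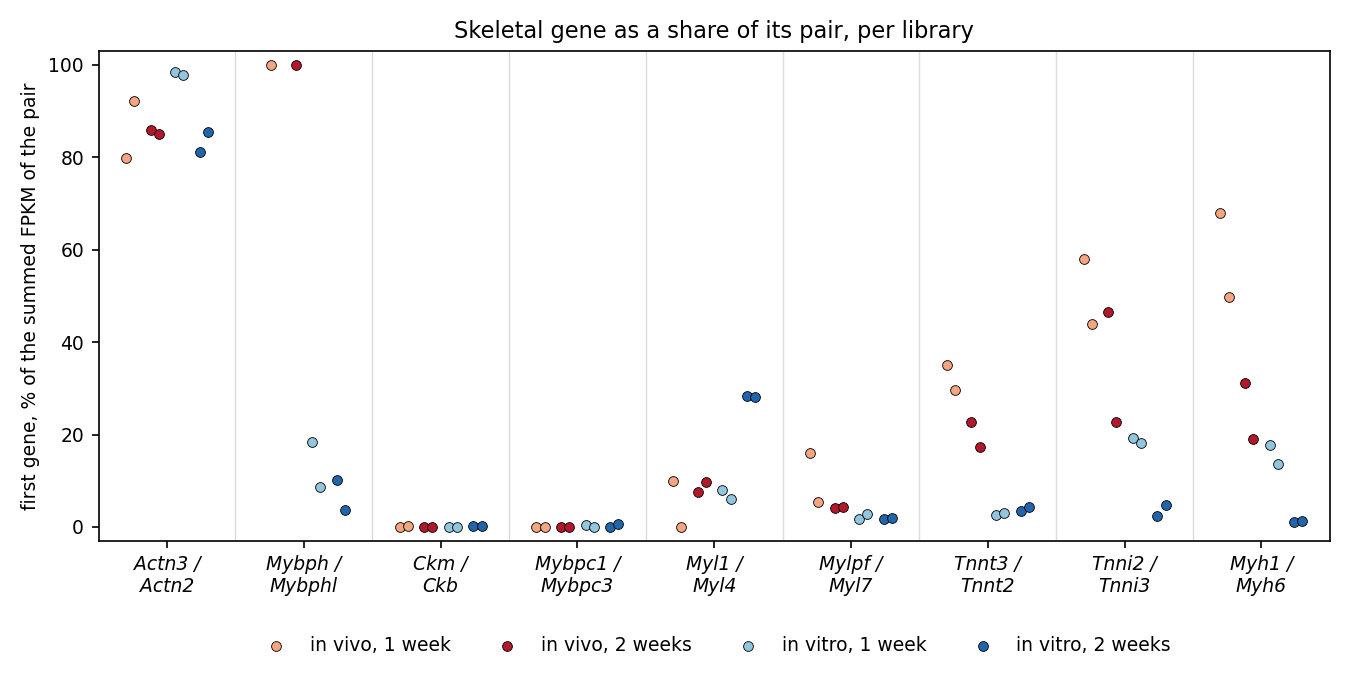
Share held by the skeletal gene in the summed FPKM of a pair, in %, with 1 point per library; for *Mybph* and *Mybphl*, 2 *in vivo* libraries have no value because both genes are at 0. *Actn3* holds 79.7% to 98.4% of its pair in every library, while *Ckm* and *Mybpc1* hold under 1%. The *in vivo* points rest on few fragments, 9 to 14 of *Actn3* per library and 1 of *Mybph* behind each of its 2 *in vivo* values.

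The partners of the myogenic factors were well detected in all groups. Of 12 partners, among them the E protein genes *Tcf3*, *Tcf4* and *Tcf12* and the MEF2 genes, 11 were tested and none was called in any comparison, with medians of -0.05 and -0.11 on the log2 scale *in vitro* against *in vivo* at 1 and 2 weeks. *Srf*, the serum response factor, was at 20.7 to 36.7 FPKM and *Mef2d* at 16 to 25.4, with log2 differences of 0.55 and 0.49 at 2 weeks that were under the size threshold (adjusted p = 0.00157 and 0.00247). *Tcf3* was at 16.7 to 21.5 FPKM. *Mef2c*, one of the factors supplied by virus, was at 4.73 to 5.88 FPKM, and transgene and own transcripts cannot be told apart.

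Known antagonists of the factors were present in all groups. *Id3*, an inhibitor of E proteins, was at 208 to 359 FPKM *in vivo* and 266 to 506 *in vitro*, and was not called between them. Of 16 antagonists tested, 1 was called higher and 4 lower *in vitro* at 1 week, against 5.07% and 7.79% of all genes. At 2 weeks 2 were called higher and 3 lower, against 8.05% and 9.02%. With no scaling between libraries, which moves the median gene up by 0.34 and 0.33, the counts of lower genes were 2 and 1, and the 3 became 1 without the *in vitro* 2 week replicate 2. *Id4* rose most, from 3.31 and 4.33 to 18.7 and 19 FPKM at 2 weeks (log2 difference 2.29 ± 0.13, adjusted p = 2.17e-05), followed by the Notch target *Hey1*, at 1.18 (adjusted p = 0.000135). *Twist1*, a factor of mesenchymal cells, fell by 1.38 (adjusted p = 0.000482). *Zeb1* and *Hes1* fell by 1.05 and 1.03, just past the size threshold, and came to -0.73 and -0.69 with no scaling between libraries. Both were under the size threshold without the *in vitro* 2 week replicate 2, at -0.95 and -0.99, and *Hes1* also without the *in vivo* 2 week replicate 2, at -0.96. *Bhlhe40*, among the most abundant, fell by 1.31 at 1 week (adjusted p = 4.02e-05; under the size threshold with no scaling) and differed by -0.45 at 2 weeks, when it was not called. In the heart time course 2 of the 16 antagonists were called higher at 2 weeks, against 1.23% of all tested genes called higher and 0.949% lower. *Id1*, outside the rule for naming, rose by 1.11 (adjusted p = 0.0012, kept without any 1 library). *Id4* rose by 1.03 (adjusted p = 0.0047). Among the fits that left out a library, its call was kept only without the *in vivo* 2 week replicate 1, and its smallest log2 difference was 0.85.

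Most of the tested regulators upstream of the myogenic factors were called lower in culture at 2 weeks. Of 6 tested from a list of 12, 3 were called lower *in vitro* at 1 week and 5 at 2 weeks, and none higher. Of all tested genes 7.79% were lower at 1 week and 9.02% at 2 weeks. *Meox1*, a homeobox gene of the somite, was at 158 and 180 FPKM *in vivo* and 1.65 and 1.58 *in vitro* at 2 weeks (log2 difference -6.62 ± 0.19, adjusted p = 1.18e-06). *Meox2* fell by 3.27 (adjusted p = 1.01e-05). Fibroblast markers were lower *in vitro* too, 5 of 8 at each time. The part of fibroblasts, and of SB431542 in the medium, in the lower levels of these regulators was not tested. *Six4* and *Eya2*, which encode partners in the activation of myogenic genes, fell by 1.75 and 1.43 (adjusted p = 0.00255 and 0.000604). The *Six4* call was lost without either *in vivo* 2 week library or the *in vitro* 2 week replicate 2 (adjusted p up to 0.0171), and the count of 5 went to 3 without either *in vivo* 2 week library. *Pax7*, the defining gene of satellite cells, was at 0 in all 8 libraries, *Pax3* did not exceed 0.117 FPKM and *Calcr* had 1 fragment in all. Of 8 satellite cell markers 3 were tested, and the level of *Cdh15*, the muscle cadherin, was at most 0.206 FPKM. Of the 3 tested, *Sdc4* was called higher *in vitro* at 2 weeks, by 2.06 (adjusted p = 1.04e-05), and not at 1 week (0.82). *Vcam1* was called lower at 1 week, just past the size threshold at -1.002 (adjusted p = 0.00015), and not at 2 weeks (-0.21). *Itga7* differed by 0.59 and 0.58 at 1 and 2 weeks and was not called.

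Of the genes of myoblast adhesion and fusion, 8 of 12 were tested, 2 were called lower *in vitro* at each time and none higher, against 7.79% and 9.02% of all tested genes called lower. *Mymk* and *Mymx*, the fusogens of muscle, had at most 3 and 1 fragments in a library. *Ncam1* was at 6.52 to 10.6 FPKM *in vivo* and 0.441 to 0.743 *in vitro*, and fell by 3.40 at 2 weeks (adjusted p = 3.3e-05). *Cav3*, the muscle caveolin, fell by 1.38 (adjusted p = 0.000624). *Kirrel*, an adhesion protein gene, and *Myof*, myoferlin, the most abundant of the list, differed by -0.46 and -0.73 and were not called. Schwann cell markers, a cell type that also expresses *Ncam1*, were lower *in vitro* too, 3 of 3 tested at 2 weeks, as were endothelial markers, 7 of 8 at 1 week and 4 of 8 at 2 weeks, and the part of these cells in the lower levels was not tested.

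Among contractile and metabolic genes that heart and skeletal muscle share, more were called higher than lower in culture. A gene could pass the filter through the place where it was high, so the counts here and in the lists below are descriptions. Of 10 embryonic and slow contractile genes tested, 5 were called higher *in vitro* and none lower at 1 week, and 7 against 1 at 2 weeks. Over all tested genes the shares were 5.07% higher with 7.79% lower, then 8.05% with 9.02%, so that the 1 lower gene of 10 is near the background. The list had at 2 weeks a median log2 difference of 3.29 against 0.0034 over all genes. *Tpm2*, β-tropomyosin, the most abundant after *Actc1*, was at 57.7 to 83.9 FPKM and was not called. The 7 became 4 without either *in vitro* 2 week library. *Actc1*, cardiac actin, which the study had picked out in these libraries, was at 4.11 and 6.66 FPKM in the heart and 324 and 288 in culture at 2 weeks (log2 difference 5.84 ± 0.26, adjusted p = 6.51e-06), *Myl4* rose by 5.26 (adjusted p = 3.23e-07), and *Tnnc1*, the troponin C of heart and slow fibres, by 5.14 (adjusted p = 9.79e-05). *Myl2* was the 1 called lower, at 0.636 and 0.789 FPKM in the heart against 0.0742 and 0.0377 in culture (limma, adjusted p = 0.00873). It passed the filter only with both *in vivo* 2 week libraries, where it was high, so this call is a description. The call was lost in all 6 fits that left out a library and still held the gene.

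Of 19 tested genes of the sarcomere scaffold, 9 were called higher *in vitro* and 3 lower at 1 week, and 12 and 2 at 2 weeks. The shares of all tested genes were 5.07% and 7.79%, then 8.05% and 9.02%, so the 2 lower genes are near the background. *Ankrd1*, a stress-responsive ankyrin repeat gene, rose by 3.19 at 2 weeks (adjusted p = 3.39e-07), and *Des*, desmin, by 1.47 (adjusted p = 1.37e-05). *Csrp3*, a Z-disc LIM protein, rose by 5.91 (adjusted p = 2.5e-06) and *Smpx*, the small muscle protein X-linked, by 4.92 (adjusted p = 2.47e-05). *Obsl1* fell by 1.39 (adjusted p = 5.1e-05). *Xirp1* fell by 2.04 (adjusted p = 0.00334), a call lost without either *in vivo* 2 week library or the *in vitro* 2 week replicate 2 (adjusted p up to 0.0237).

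Of 14 tested genes of muscle energy supply, 4 were called higher *in vitro* at 1 week and 7 at 2 weeks, with none lower, against 5.07% and 8.05% of all tested genes called higher. *Ckb* and *Ak1*, adenylate kinase, the most abundant of the list, differed by -0.67 and -0.14 at 2 weeks and were not called. *Fabp3*, the heart and muscle fatty acid binding protein, rose by 3.60 (adjusted p = 1.2e-05), the oxidase subunit gene *Cox7a1* by 3.56 (adjusted p = 3.41e-05), and *Mb*, myoglobin, by 3.33 (adjusted p = 0.000497), from 0.653 and 0.425 to 8.04 and 4.78 FPKM. Of 8 tested genes of excitation coupling, 2 were called higher *in vitro* and 1 lower at 1 week (5.07% and 7.79% of all tested genes), and 4 and none at 2 weeks (8.05% and 9.02%). The 2 became 0 without the *in vivo* 1 week replicate 1 or either *in vitro* 1 week library, and 1 without the *in vivo* 1 week replicate 2 or either *in vitro* 2 week library, the 1 lower became 0 in every fit that left out a library, and the 4 became 2 without either *in vitro* 2 week library. *Srl*, sarcalumenin, rose by 3.16 at 2 weeks (adjusted p = 8.35e-05), and *Trdn*, triadin, by 2.31 (adjusted p = 0.00327), the latter lost in 4 of 8 fits that left out a library: those without the *in vivo* 2 week replicate 1, the *in vitro* 1 week replicate 1 and either *in vitro* 2 week library (adjusted p up to 0.0315). *Jph1* rose by 1.97 (adjusted p = 0.00137; up to 0.0148 without either *in vitro* 2 week library), and *Jph2* by 1.05 (0.96 without the *in vivo* 2 week replicate 2). *Cacna2d1*, a calcium channel subunit gene, was not called (-0.86).

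Of 16 tested cardiac genes, 9 were called higher *in vitro* and 3 lower at each time, against 5.07% and 7.79% of all tested genes at the earlier and 8.05% and 9.02% at the later. The study had picked *Tnni3*, *Tnnt2*, *Myh6* and *Ryr2* in these libraries, so the list is not independent evidence of its direction. The 3 lower at 1 week became 1 without the *in vivo* 1 week replicate 2, and those at 2 weeks became 1 without the *in vivo* or the *in vitro* 2 week replicate 1. *Myh6*, the cardiac myosin heavy chain, rose by 8.62 at 2 weeks (adjusted p = 7.11e-06), *Hcn4*, a pacemaker channel gene, by 5.31 (adjusted p = 1.22e-05), and *Myl7*, the atrial light chain, by 5.15 (adjusted p = 4.63e-05), to 475 and 594 FPKM. *Pln*, which encodes the calcium pump regulator phospholamban, fell by 3.97 (adjusted p = 0.000109). *Gja5* fell by 1.58 and *Slc8a1* by 1.01, and both calls were lost without the *in vivo* 2 week replicate 1 and without the *in vitro* 2 week replicate 1 (adjusted p up to 0.0127 for *Gja5*, log2 differences of -0.79 and -0.99 for *Slc8a1*). Of the 5 reprogramming factors, *Sall4* was called higher *in vitro* at 2 weeks, by 1.65 (adjusted p = 0.000808), and *Myocd* by 1.22 (adjusted p = 0.00035), while *Gata4*, *Tbx5* and *Mef2c* differed by 0.86, 0.53 and -0.11 and were not called. All 5 were supplied by virus, and transgene and own transcripts cannot be told apart.

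**Figure D5:**
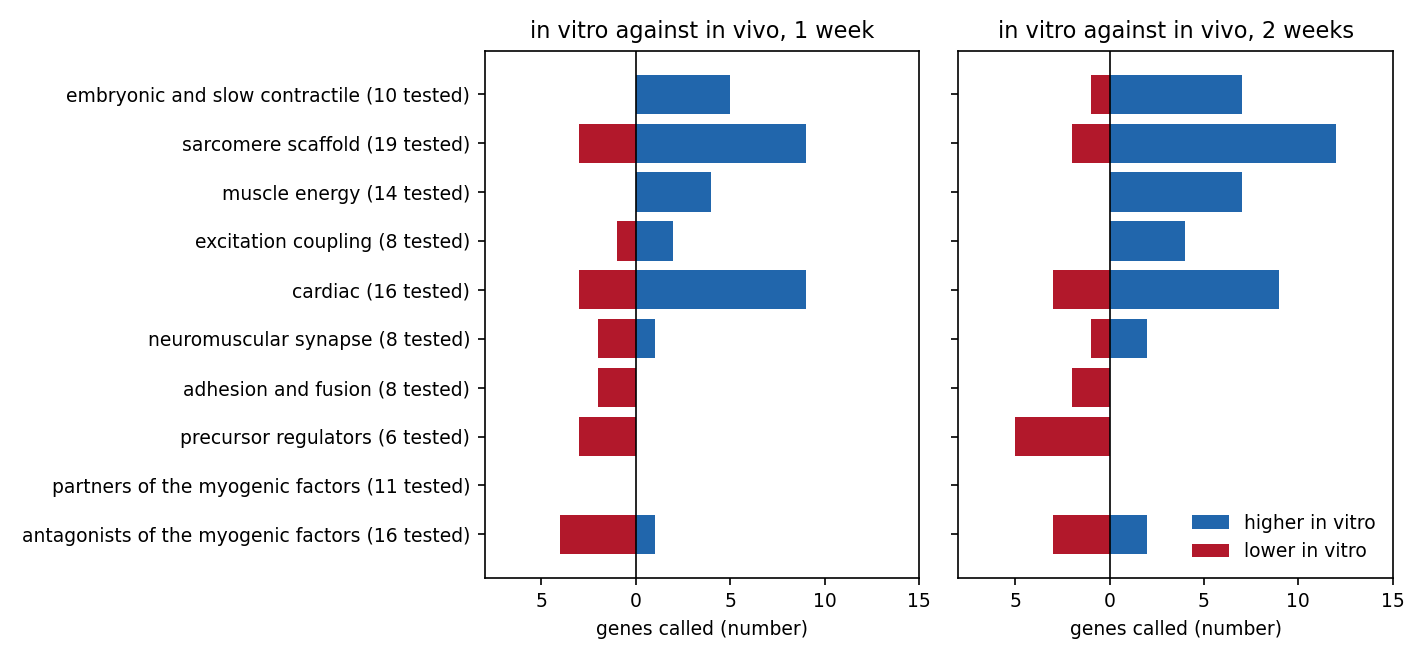
Number of genes called higher (right of 0) and lower (left of 0) *in vitro* than *in vivo* in 10 lists, at 1 week and at 2 weeks, with the number of genes tested in brackets. At 2 weeks 12 of 19 sarcomere scaffold genes are called higher and 2 lower, while none of 11 partners of the myogenic factors is called.

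Within culture, from 1 to 2 weeks, 2.76% of all genes were called higher and 1.05% lower. The counts were 4 of 10 embryonic and slow contractile genes (3 to 5 when 1 library was left out), 7 of 19 scaffold genes (1 to 8), 5 of 14 energy genes (1 to 6) and 4 of 16 cardiac genes (1 to 6), all higher at 2 weeks. The counts of scaffold genes were 1 to 3, of energy genes 1 and of cardiac genes 1 without any 1 of the 4 *in vitro* libraries. Endothelial markers were called higher over that time for 5 of 8, mural for 3 of 8 and mesothelial for 3 of 6 genes, and the part of these cells was not tested. In the heart over the same time, where 1.23% of all genes were called higher and 0.949% lower, the lists of contractile, scaffold, energy and cardiac genes each had 1 called gene, higher at 2 weeks: *Tnnt1* (log2 difference 1.24, adjusted p = 0.00881), *Tcap* (2.08, 0.00937), *Pgam2* (1.14, 0.00596) and *Pln* (2.09, 0.00975). The first 3 were named after their values were seen. The calls of *Tnnt1* and *Pln* were lost without any 1 library, and those of *Tcap* and *Pgam2* were kept only without the *in vivo* 1 week replicate 2. The difference between the time courses, culture minus heart, was called above 0 for 1.15% of all genes and below 0 for 0.573%.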

How the data were processed

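RNA of reprogramming mouse cells was sequenced in 8 libraries, 2 for each of 4 groups. The authors aligned reads with HISAT2 2.0.5 to mm10, per the submitters' processing notes, and deposited FPKM per gene for 54532 genes with gene lengths; the counting tool and its strand setting are not given in the sources used here. In the deposited table, 98.3% of 54409 gene IDs shared with GENCODE vM21 (GRCm38) have the same start and end. FPKM times gene length gave whole fragments for 100% of values (tolerance 0.01). The library size behind the FPKM was 0.863 to 0.915 of the fragments on genes *in vivo* and 1.09 to 1.15 *in vitro*, which are factors of a scaling between libraries.

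Groups came from the labels. The main test was limma 3.58.1 in R 4.3.3 on log2(FPKM + 0.1) with a variance trend, over all 8 libraries, for genes with at least 0.5 FPKM in at least 2 libraries (15708 genes). Genes were called where p, adjusted by the Benjamini-Hochberg method, was under 0.01 and the log2 difference was over 1 in size, as in the study, whose p is not said to be adjusted. Fold changes on this scale understate the change of low genes. A gene low in heart or culture could pass the filter through the other place alone. Calls of such genes between heart and culture are descriptions. The 10 genes and the lists were chosen with earlier results of these data known. From each list the text names at most 3 genes called in each direction at 2 weeks, with the largest differences, and the 2 with the highest mean; counterparts and reprogramming factors are all named, and fast isoforms count in their own list only. The alternatives were other pseudocounts and filters, no scaling between libraries, voom on the recovered fragments, a replicate block, no variance trend, and leaving out each library. Scripts were tested on simulated data. Replicates differed by more than sampling noise (chi-square per gene 4.25 to 9.22), and p-values measure the spread between these libraries, which may be technical. Intervals and the floor of 3 fragments cover counting error only. Promoters came from RefSeq. Figures were drawn with matplotlib 3.10.9.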

Additional observations from a re-analysis of the deposited data

Results flagged for a closer look

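Among 62 named list genes tested, many of them named for large differences at 2 weeks that enter this comparison, 4 had time courses that differed between culture and heart by a test of the difference itself (limma), against 1.15% of all genes above 0 and 0.573% below; the count is thus a description. The log2 difference between the time courses was 1.07 for *Myl4* (adjusted p = 0.00643; 1.37 in culture, 0.30 in the heart), 1.86 for *Fabp3* (adjusted p = 0.0089; 1.24 and -0.62), 2.33 for *Csrp3* (adjusted p = 0.0064; 1.67 and -0.66) and 1.16 for *Ankrd1* (adjusted p = 0.0025; 0.23 and -0.92). Of 8 fits that each left out 1 library, the call was lost in 7 for *Myl4* and *Fabp3* and in 6 for *Csrp3* and *Ankrd1*, with adjusted p up to 0.0313, 0.0386, 0.0418 and 0.0137. All 4 calls were also lost under the replicate block and with no variance trend.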

How the results depend on the processing

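No call changed direction. In the comparison of the time courses, 271 genes were called, against 72 with no filter, 473 by voom, 71 with no variance trend and 27 with a replicate block; the cause was not tested. Leaving out 1 library gave 2 to 190 genes there, 90 to 271 of 342 in the heart time course and 223 to 604 of 599 in the culture time course, the counts moving by over 1.5 times in the first without any library but the *in vivo* 2 week replicate 2, in the second without either *in vivo* 1 week library or the *in vivo* 2 week replicate 2, and in the third without any *in vitro* library; at 1 and 2 weeks *in vitro* against *in vivo* it gave 1515 to 2047 of 2020 and 2009 to 2569 of 2682. The left-out group keeps 1 library, assumed to vary like the others. With the replicate block the counts were 1851, 2512, 448 and 236 at 1 week, at 2 weeks, in culture and in the heart. Differences between replicates 2 and 1 were close to uncorrelated between groups (correlations -0.048 to -0.011). These values cannot show whether the samples were paired by origin, which the labels do not give. With no scaling between libraries the median gene shifted by 0.34 and 0.33 at 1 and 2 weeks, and the share of calls that were higher *in vitro* went from 39.4% to 63.3% and from 47.2% to 67.1%; with a pseudocount of 1 the share higher in the heart time course went from 56.4% to 67.6%. That pseudocount also ended the 2 week calls of *Myl2*, *Six4*, *Zeb1*, *Rapsn*, *Trdn*, *Xirp1*, *Gja5*, *Slc8a1* and *Myocd*. Levels under 3 fragments in a library could not be compared.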
